A study of Mus musculus with 3 samples.

Results

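The liver makes most of the complement and coagulation proteins of blood plasma, and the genes of 34 of them were followed here in mouse liver on 3 diets. The genes were listed by name, 16 for complement and 18 for coagulation and fibrinolysis. Of the 34 listed, 31 could be read, 14 of complement and 17 of coagulation, among 11341 genes kept on the arrays. C3, C4b and Cpb2 were not analysed here, because no probe set used here named any of them alone. Male C57BL/6J mice were fed from 6 weeks of age for 15 weeks with a control diet with 10% of energy from fat (Control, diet D12450B), a high-fat diet with 60% of energy from fat (HF, diet D12492), or that high-fat diet with sodium ferrous citrate, an iron salt, at 0.023% by weight (HF+SFC). The sample labels give an age of 21 months, which does not match this schedule and was not used. Per the study's methods, mice were fasted for some hours before tissue was taken. Each group is a single pool of its animals on 1 Affymetrix mouse genome array, so that there are 3 arrays, no replicates and no test, and each difference below is one between pools. The values are deposited MAS5 signals on a linear scale, scaled by the authors to a common 2% trimmed mean of 500.004 per array, and a difference is given as the log2 ratio or the fold of the signals of a pair of arrays.

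Complement is a cascade of plasma proteases and pore-forming proteins that marks and lyses microbes. The classical and lectin pathways start it through Mbl1, Mbl2, the Masp proteases, C4b and C2, the alternative pathway amplifies it through C3 and Cfb, and the terminal proteins Hc (complement C5), C6, C8, C7 and C9 assemble into the membrane attack complex. Coagulation is a second protease cascade, which ends with thrombin (F2) turning fibrinogen into fibrin and plasmin (from Plg) dissolving it. Hepatocytes secrete nearly all of these proteins, and transcription factors of the liver such as HNF4A, FOXA and C/EBP drive many of their genes. Several of them, fibrinogen among them, are acute phase proteins that respond to interleukin-6.

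Most of the 31 genes were slightly lower in HF than in Control, and C6 and C8b, both of the membrane attack complex, were more than 2-fold lower. In HF 25 of 31 genes had a log2 ratio to Control below 0, against 46.9% of all kept genes and 57.7% of the 2601 genes at least as bright as the dimmest member. The median was -0.20 over the 31 genes, 0.03 over all kept genes and -0.05 over the bright genes. Under quantile and under lowess scaling 22 of the 31 genes were below 0, and the medians of complement and coagulation moved towards 0. In HF+SFC against HF the median was 0.06, close to 0.04 for the bright genes, and the complement median turned sign under these scalings. F11, the coagulation factor XI gene, had the largest difference of the 31 in the other direction, 1.43-fold higher in HF and 1.61-fold higher in HF+SFC than in Control. In liver pieces, fewer hepatocytes and less RNA of a gene per hepatocyte cannot be told apart.

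The counts of genes at or beyond 1.5-fold stood close to or below the shares among other genes. In HF over Control 2 of 31 genes (6.45%), C6 and C8b, were at least 1.5-fold lower, against 5.84% of kept genes and 4.58% of the bright genes, and 0 were higher, against 11.3% and 4.81%. In HF+SFC over HF 0 of 31 passed in either direction, against 2.88% of kept genes higher and 5.33% lower, and 0.346% and 0.384% of the bright genes. In HF+SFC over Control 1 gene (3.23%), F11, was higher and 2 (6.45%), C6 and C8b, were lower. The background there was 9.20% higher and 6.88% lower among kept genes and 4.96% and 4.23% among bright ones. HF over Control and HF+SFC over HF share the HF array, and any error of that array enters both with opposite sign.

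**Figure D1:**
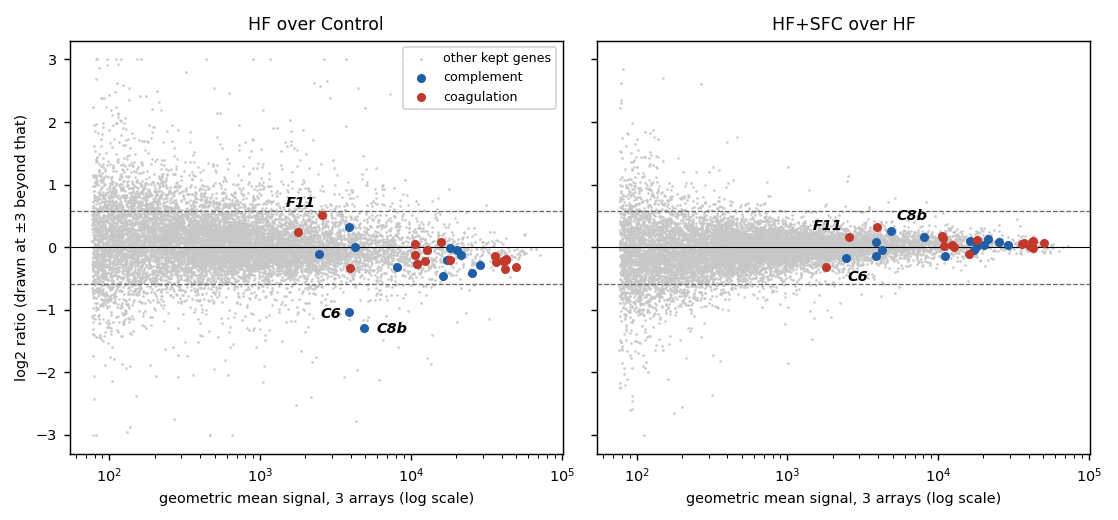
Log2 ratio (y axis) plotted at the geometric mean of the 3 signals (x axis, logarithmic), with the 11341 kept genes in grey, complement genes in blue and coagulation genes in red, the left panel for HF over Control and the right panel for HF+SFC over HF; dashed lines mark 1.5-fold. The genes lie at signals of 1797 and more, where ratios scatter less than at low signal, and C6 and C8b stand below the dashed line on the left only.

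The upstream sequences of the genes that stood out are shown because the genes of the same protein complex, C8a and C8b, differed unequally, and because F11 went the other way. The bases are those of RefSeq on build GRCm38.p6 that lie before the outermost annotated start of each gene, read 5′ to 3′ on the gene's strand, so that no transcribed base is included. Capitals mark matches to 5 short motifs searched on both strands, which are given further below with their frequencies.

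C6, chr15:4726960-4727066, plus strand: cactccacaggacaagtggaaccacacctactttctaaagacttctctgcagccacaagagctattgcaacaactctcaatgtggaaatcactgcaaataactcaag

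C8b, chr4:104766067-104766316, plus strand: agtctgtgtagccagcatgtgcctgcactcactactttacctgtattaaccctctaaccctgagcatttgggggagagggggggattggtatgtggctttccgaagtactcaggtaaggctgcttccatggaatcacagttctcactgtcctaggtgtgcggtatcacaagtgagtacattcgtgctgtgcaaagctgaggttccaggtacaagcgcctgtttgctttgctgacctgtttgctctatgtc

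C8a, chr4:104876488-104876648, minus strand: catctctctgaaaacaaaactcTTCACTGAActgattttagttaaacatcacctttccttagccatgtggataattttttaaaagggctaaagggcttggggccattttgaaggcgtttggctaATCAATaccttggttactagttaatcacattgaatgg

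F11, chr8:45262056-45262281, minus strand: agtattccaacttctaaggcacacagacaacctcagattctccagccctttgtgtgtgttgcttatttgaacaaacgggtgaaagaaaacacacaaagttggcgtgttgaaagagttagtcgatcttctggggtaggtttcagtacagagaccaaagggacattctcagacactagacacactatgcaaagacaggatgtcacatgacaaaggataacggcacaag

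The capitals in C8a are the ONECUT1 core ATTGAT, read as ATCAAT on the other strand, and the STAT-type site TTCNNNGAA. The pieces shown for C6, C8b and F11 held none of the 5 motifs. The scan given further below covered 250 bases in each promoter, including bases not printed here for C6, C8a and F11 because they lie past the outermost annotated start.

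To describe how the liver genes of the complement system differed after high-fat feeding, HF was compared with Control. All 6 genes of the terminal pathway that were read had a log2 ratio below 0, with a median of -0.44, whereas the 5 genes of classical and lectin activation had a median of -0.04, which turned to 0.02 under quantile and 0.04 under lowess scaling. Of the 14 complement genes, 2 (14.3%) were at least 1.5-fold lower and 0 higher. The shares of kept genes were 5.84% and 11.3%, and those of bright genes 4.58% and 4.81%. The median of the 14 was -0.24 (lowess scaling, -0.15).

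C6 encodes the protein that joins the larger fragment of cleaved C5 and begins the pore. Its signal was 6501, 3165 and 2880 in Control, HF and HF+SFC. HF was thus 2.05-fold and HF+SFC 2.26-fold below Control, and both high-fat pools lay close together. Of the 2601 bright genes, 31 stood at or below its log2 ratio of -1.04 for HF over Control.

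C8b encodes the β chain of C8, which inserts into the target membrane with the α chain. Its signal was 8306, 3397 and 4076 in Control, HF and HF+SFC. It was 2.45-fold lower in HF and 2.04-fold lower in HF+SFC than in Control, and 15 of the 2601 bright genes stood at or below its log2 ratio of -1.29. Across 8 alternative settings this ratio stayed between -1.32 and -1.24, and that of C6 between -1.07 and -1.01 across 9. Of these settings only the scalings and the pseudocount could change the ratios. Both genes were read by 1 probe set each, so that no second probe set bears on either difference.

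C8a, the α chain gene, lies next to C8b in the order of protein-coding genes on chromosome 4. Its signal was 19774, 14347 and 15294 in Control, HF and HF+SFC, 1.38-fold lower in HF. The same order of the arrays was seen as for C8b, with a smaller difference. C8g, which encodes the γ chain, a lipocalin bound to the α chain, gave 22109, 20306 and 22290 in Control, HF and HF+SFC. The 3 chains of C8 thus had log2 ratios of -1.29 (β), -0.46 (α) and -0.12 (γ) for HF over Control, although the 3 proteins form 1 complex.

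C9 forms the ring of the pore. Its signal was 30269, 22688 and 24059 in Control, HF and HF+SFC, a log2 ratio of -0.42 for HF over Control that became -0.28 under quantile and -0.32 under lowess scaling. Hc gave 19299, 16673 and 16213 in the same order, and was 1.16-fold lower in HF. Both high-fat pools were below Control for each of these genes, whereas for C8g HF+SFC was level with Control.

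**Figure D2:**
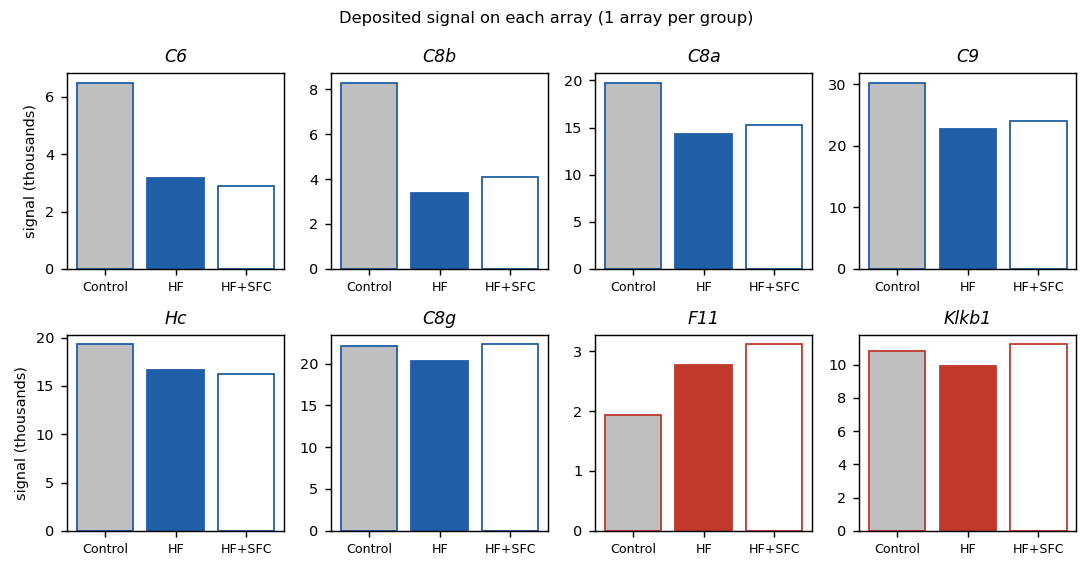
Deposited signal (y axis, from 0, its range set for each gene) on each of the 3 arrays (x axis: Control, HF, HF+SFC) for the 6 terminal complement genes (blue) and for F11 and its neighbour Klkb1 (red). C6 and C8b reach at most 3165 and 4076 in the high-fat pools against 6501 and 8306 in Control, and F11 is highest in HF+SFC at 3113.

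Among the genes that start complement, Masp1 was higher in the high-fat pools. It encodes proteases of the lectin pathway. Its signal was 3258, 4080 and 4333 in Control, HF and HF+SFC, 1.25-fold higher in HF, and its 4 kept probe sets lay between 0.26 and 0.53 on the log2 scale. For HF+SFC over HF these probe sets lay between -0.32 and 0.09, so that the small step from HF to HF+SFC had no common direction. Masp2, the protease that cleaves C4 and C2, gave 4270, 4287 and 4171 by its brighter probe set, a log2 ratio of 0.01 for HF over Control, while its other probe set stood at 0.35.

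The mannose-binding lectins recognise sugars on microbes. Mbl1 gave 8979, 7213 and 8042 in Control, HF and HF+SFC, and Mbl2 gave 20407, 19782 and 20331. Mbl1 was 1.24-fold lower in HF, and Mbl2 differed by 1.03-fold, its sign turning with quantile or lowess scaling. C2, the catalytic part of the classical C3 convertase, gave 2700, 2493 and 2200, and its 3 probe sets ranged from -0.47 to -0.12 for HF over Control. Cfb, its counterpart in the alternative pathway and an acute phase protein, gave 12925, 10727 and 9675, 1.20-fold lower in HF and 1.34-fold lower in HF+SFC than in Control.

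Of the plasma regulators, C4bp was level and Cfi was lower in both high-fat pools. C4bp, the α chain of the protein that restrains the classical convertase, gave 18283, 18094 and 18267, a spread of about 1.01-fold over the 3 arrays, and the sign of its ratios turned under quantile and lowess scaling. Cfi, the protease that cleaves C3b and C4b, gave 32624, 26907 and 27564 and was 1.21-fold lower in HF.

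**Figure D3:**
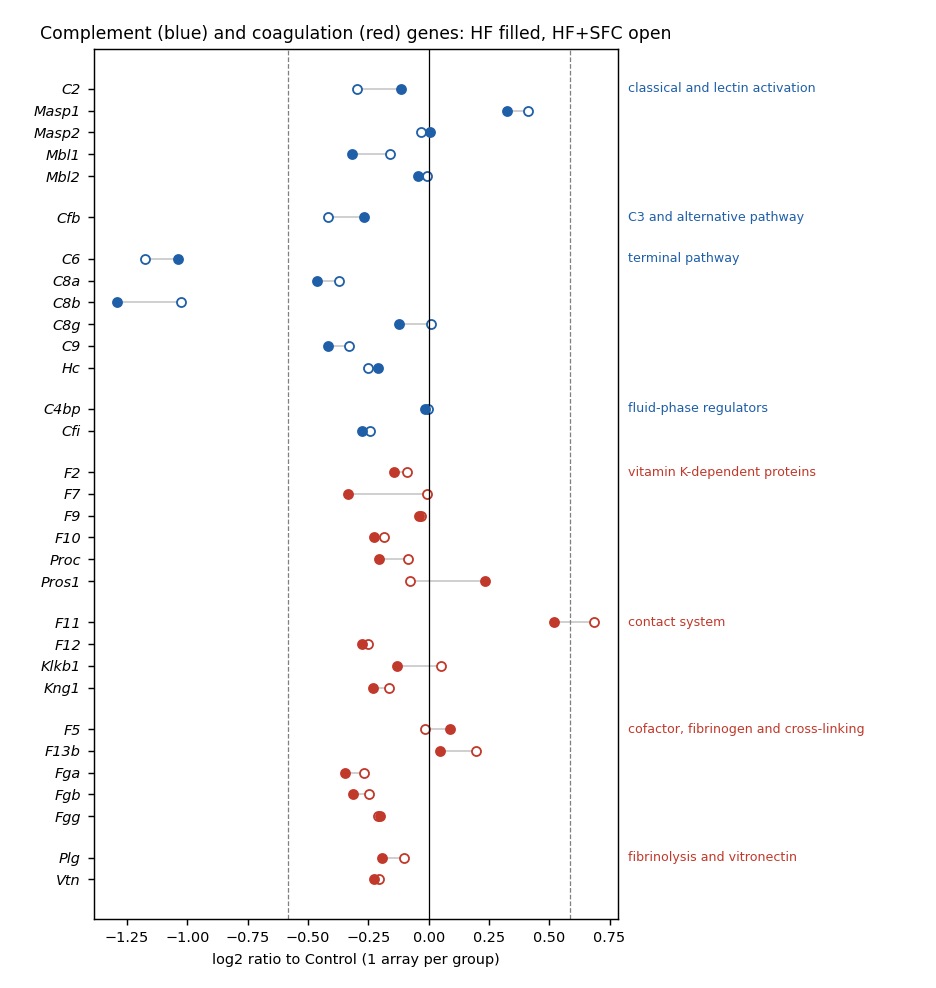
Log2 ratio to Control (x axis) of each of the 31 genes (y axis, ordered by role, complement in blue and coagulation in red), with HF as filled and HF+SFC as open points, 1 array per group; dashed lines mark 1.5-fold. C8b at -1.29 and C6 at -1.04 lie far to the left of the other genes in HF, and F11 lies to the right at 0.52 in HF and 0.69 in HF+SFC.

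The coagulation genes were compared in the same way. In HF 13 of 17 were below Control and 0 of 17 differed by 1.5-fold, against 11.3% of kept genes higher and 5.84% lower. The log2 ratios of the 17 ran from -0.35 to 0.52, with a median of -0.20. This median depended on the scaling between arrays and was -0.06 under quantile and -0.09 under lowess scaling. At signals of 1797 or more, where all of the coagulation genes lie, probe sets of one gene differed among themselves. Their SD was 0.13 on the log2 scale for HF over Control (726 genes with 2 or more such probe sets).

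The 3 fibrinogen chains are joined into 1 hexamer and are encoded next to each other on chromosome 3. Fga gave 48542, 38156 and 40258 in Control, HF and HF+SFC, Fgb gave 57156, 46017 and 48110, and Fgg gave 46849, 40742 and 40554. All 3 were highest in Control. In HF they were 1.27-fold, 1.24-fold and 1.15-fold lower, and under quantile scaling the log2 ratios of -0.35, -0.31 and -0.20 became -0.21, -0.19 and -0.03. F13b, the carrier subunit of the factor that cross-links fibrin, stood at 0.05 for HF over Control, with signals of 10144, 10486 and 11624.

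The vitamin K-dependent proteins need carboxylated glutamates to bind calcium and membranes. Of the 6 genes, 5 were below 0 in HF, with a median of -0.17 (quantile and lowess scaling, -0.07 and -0.08). F7, which starts coagulation with tissue factor and has a short-lived protein, gave 4267, 3389 and 4242 in Control, HF and HF+SFC. It was 1.26-fold lower in HF and 1.25-fold higher in HF+SFC than in HF, so that Control and HF+SFC were level. F10, its neighbour on chromosome 8 and its substrate, gave 13598, 11622 and 11953, and its 3 probe sets ranged from -0.26 to -0.05 for HF over Control.

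Prothrombin (F2) gave 38089, 34479 and 35820 in Control, HF and HF+SFC. F9, the factor absent in haemophilia B, gave 12924, 12587 and 12646 and differed by 1.03-fold, its sign turning with quantile or lowess scaling. Proc, the anticoagulant protein C gene, gave 19377, 16820 and 18277. Its cofactor protein S was the one member of the group that was higher in HF, since Pros1 gave 1733, 2040 and 1641 in Control, HF and HF+SFC. Pros1 was the dimmest of the 31 genes, and the HF pool stood 1.18-fold above Control and 1.24-fold above HF+SFC.

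In the contact system, which starts coagulation on charged surfaces and releases bradykinin, F11 differed from the other genes. Its signal was 1936, 2778 and 3113 in Control, HF and HF+SFC, and both high-fat pools exceeded Control. The log2 ratio was 0.52 for HF and 0.69 for HF+SFC over Control. Its range over 9 alternative settings was 0.49 to 0.54 and 0.67 to 0.69, respectively. Of these settings only the scalings and the pseudocount could change the ratio. F11 was read by 1 probe set. Of the 2601 bright genes, 156 stood at or above its log2 ratio for HF over Control. For HF+SFC over Control 93 did. Klkb1, the plasma prekallikrein gene, arose with F11 by gene duplication and lies beside it on chromosome 8. It gave 10832, 9900 and 11222, a log2 ratio of -0.13 for HF over Control. In HF over Control neither the size nor the direction of the F11 difference was thus shared by Klkb1. For HF+SFC over Control Klkb1 stood at 0.05. For HF+SFC over HF both were above 0, F11 at 0.16 and Klkb1 at 0.18.

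F12, which activates both, gave 12440, 10273 and 10463 in Control, HF and HF+SFC and was 1.21-fold lower in HF. Kng1, the kininogen from which bradykinin is cut, gave 40379, 34446 and 36009, with both of its probe sets below 0, at -0.23 and -0.28. F5, the cofactor of factor X, gave 15658, 16640 and 15500, and its 2 probe sets stood on either side of 0 in each comparison with HF. In fibrinolysis, Plg gave 45780, 39985 and 42635. Vtn, vitronectin, which binds plasminogen activator inhibitor and also blocks the terminal complement complex, gave 44901, 38374 and 38894, with its 2 probe sets at -0.23 and -0.29.

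**Figure D4:**
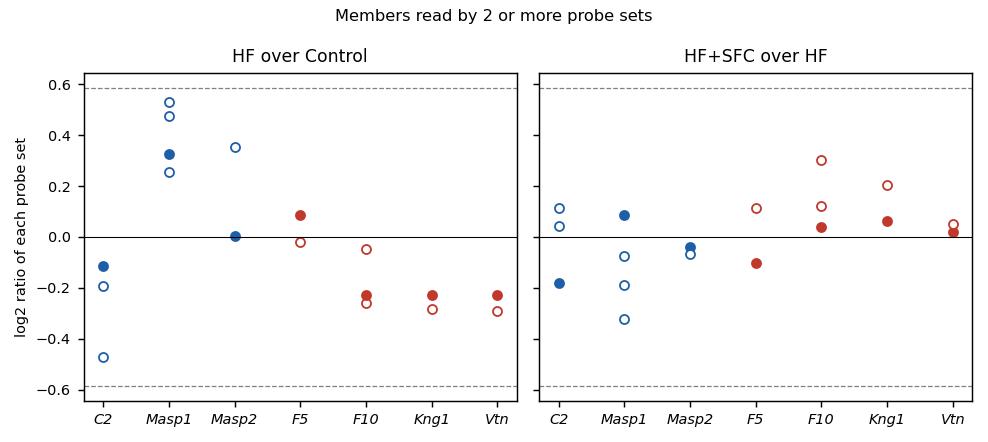
Log2 ratio (y axis) of each kept probe set of the 7 genes read by 2 or more (x axis; complement blue, coagulation red), the left panel for HF over Control and the right panel for HF+SFC over HF; filled points are the probe sets used and dashed lines mark 1.5-fold. The 4 probe sets of Masp1 all lie above 0 on the left, from 0.26 to 0.53, and on both sides of 0 on the right.

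Complement was set against coagulation to see whether the branches differed. For HF over Control the medians were -0.24 and -0.20, a difference of -0.04, and 16 of 17 coagulation genes lay inside the range of the complement genes. Without C6 and C8b the complement median was -0.17 and the difference 0.03, so that its sign rested on these genes (a comparison added after the data were seen). For HF+SFC over HF the medians were 0.04 and 0.06. For HF+SFC over Control they were -0.25 and -0.09, a difference of -0.16 that stayed negative in each of the 11 alternatives run, between -0.16 and -0.11. Several of these alternatives, the filters, the floor and median centring, could not change it. Genes are not replicates, and no test of these differences was made.

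Both high-fat pools were set against each other to describe the addition of the iron salt. In HF+SFC over HF 8 of the 31 genes (25.8%) were below 0, against 51.2% of kept genes and 38.8% of bright ones, whose median was 0.04. Of the 31 genes 23 had a change of less than 10% of the HF signal. The sign of so small a shift depended on scaling, since 8 genes were below 0 under the deposited scaling but 15 under quantile and 16 under lowess scaling. The complement median of 0.04 became -0.01 and -0.02 under these. F7 (1.25-fold higher), C8b (1.20-fold higher) and Pros1 (1.24-fold lower) differed most and kept their sign in each alternative that read them. C6 and Cfb, which were lower in HF than in Control, were also lower in HF+SFC than in HF, by 1.10-fold and 1.11-fold. Over the whole span from Control to HF+SFC, 26 of 31 genes were below 0, against 47.9% of kept genes and 51.5% of bright ones, and the median was -0.16.

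Genes of the same systems that were not among the 31 were read from lists of other components. Of 24 other complement genes 15 were above 0 in HF, with a median of 0.22. Lower by 1.5-fold was 1 of 24 (4.17%, against 5.84% of kept genes), and 0 were higher, against 11.3%. The lower gene was Fcnb, a ficolin, at signals of 98.2, 62.6 and 100 in Control, HF and HF+SFC. C1qc, 1 of the chains of C1q, which macrophages and not hepatocytes make, gave 1860, 2653 and 1730. Vsig4, the Kupffer cell receptor for C3b, gave 2116, 3002 and 2475. C1ra, the protease that C1q activates and that hepatocytes make, gave 8032, 5561 and 5529. C1qc and Vsig4 were thus highest in HF, whereas C1ra was highest in Control. Not all genes of the list outside macrophage markers went with C1ra. C1s1 gave 11032, 12264 and 12193 and Colec11 gave 4053, 5246 and 4468 in Control, HF and HF+SFC. Fcna, a ficolin that is in none of the marker lists, gave 1809, 1502 and 1494 and was highest in Control. Whether the directions follow the cell of origin was not tested. Serping1, the inhibitor of C1 and kallikrein, gave 30873, 26877 and 27469, a log2 ratio of -0.20 for HF over Control, level with the median of the 31 genes.

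In HF+SFC over HF 3 of these 24 genes (12.5%, against 5.33% of kept genes) were lower by 1.5-fold, Cd46, Cd55 and C1qc at -0.71, -0.64 and -0.62. Fcnb was higher at 0.68 (1 of 24, 4.17%, against 2.88% of kept genes). Cd46 and Cd55 protect cells from complement. Cd46 had signals of 103, 117 and 71.6 and Cd55 of 299, 385 and 248 in Control, HF and HF+SFC, so that both were dim.

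Of 25 other coagulation and fibrinolysis genes HF exceeded Control by 1.5-fold or more in 4 (16%, against 11.3% of kept genes). HF was lower by as much in 0 (5.84% of kept genes), and the median was 0.00. These counts depended on scaling. Under quantile scaling 3 genes were higher and 1 lower, and under lowess scaling 3 were higher and 0 lower. Anxa2, which with S100a10 forms a cell-surface receptor for plasminogen, gave 428, 1963 and 1374 in Control, HF and HF+SFC. Its 2 probe sets stood at 0.94 and 2.20 for HF over Control. S100a10 gave 6315, 9989 and 9722, but its 3 probe sets ranged from 0.15 to 0.66. Procr, the endothelial receptor of protein C, gave 87.4, 290 and 92.5, and Plat, tissue plasminogen activator, gave 65.1, 101 and 98.8. Procr was dim in Control and HF+SFC and high only in HF.

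No plasma inhibitor read in that list reached 1.5-fold for HF over Control. Tfpi, tissue factor pathway inhibitor, gave 267, 384 and 394 in Control, HF and HF+SFC, 1.44-fold higher in HF. Its 4 probe sets ranged from -0.21 to 0.53. Antithrombin (Serpinc1) gave 43041, 37990 and 39083 in Control, HF and HF+SFC, a log2 ratio of -0.18 for HF over Control. Fgl1, a fibrinogen-like protein of hepatocytes, gave 19455, 16091 and 18905. Of the 4 genes of the vitamin K cycle 0 differed by 1.5-fold. Vkorc1, the warfarin target, gave 17198, 14621 and 15995.

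A list of liver transcription factors and of genes of interleukin-6 and related signalling, receptors and inhibitors included, had 15 of 19 genes below 0 in HF, with a median of -0.26 (quantile and lowess scaling, -0.24 and -0.23). Of the 19 genes 6 were lower by 1.5-fold (31.6%, against 5.84% of all kept genes) and 0 were higher. Il6ra, the interleukin-6 receptor, went the other way, at 1195, 1769 and 1999 in Control, HF and HF+SFC. Onecut1 gave 1349, 553 and 750 in Control, HF and HF+SFC, and its 2 probe sets stood at -1.29 and -1.17 for HF over Control. Foxa1 gave 2599, 1136 and 1114, a log2 ratio of -1.19 for HF over Control. Socs3, the feedback inhibitor of interleukin-6 signalling, gave 980, 446 and 376, with 3 probe sets from -1.14 to -0.69. Foxa2 stood at -0.89 by its single probe set. The other 2 were Foxa3 at -0.62 and Hnf4a, the main regulator of hepatocyte genes, at -0.61 by the probe set used, with its 4 probe sets from -0.61 to -0.24. Onecut1, Foxa2, Foxa3 and Hnf4a were lowest in HF, and Foxa1 and Socs3 in HF+SFC. Whether they bear on the 31 genes was not tested.

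Other secreted proteins of hepatocytes showed a smaller difference. Of 18 such genes 16 were below 0 in HF, and the median was -0.10. It was 0.00 under quantile and 0.02 under lowess scaling. Alb, the albumin gene, gave 54077, 50644 and 52202 in Control, HF and HF+SFC. Under lowess scaling the complement median of -0.15 and the coagulation median of -0.09 were thus both below that of the other secreted proteins at 0.02.

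**Figure D5:**
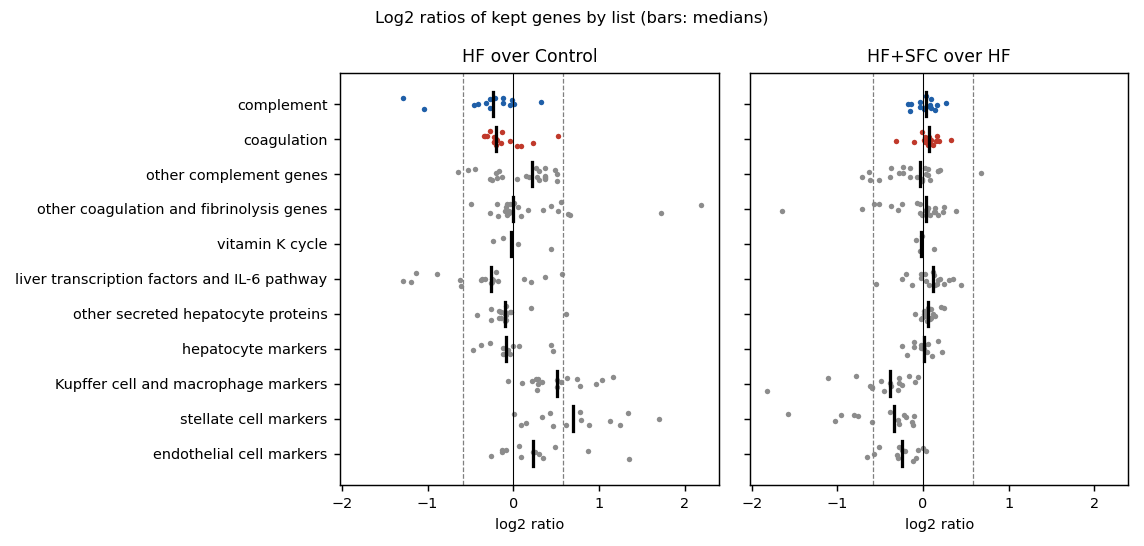
Log2 ratio (x axis) of each kept gene in 11 lists (y axis), the left panel for HF over Control and the right panel for HF+SFC over HF; points stand for genes, black bars medians and dashed lines 1.5-fold, each from 1 array per group. The complement and coagulation medians lie at -0.24 and -0.20 on the left, and the Kupffer cell and stellate cell markers lie on the other side of 0, at 0.50 and 0.70.

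Macrophage and stellate cell markers were higher in the HF pool, whereas 10 of 13 hepatocyte markers were, like most of the 31 genes, below Control. The hepatocyte markers ran from 1.39-fold lower (G6pc) to 1.38-fold higher (Glul) in HF. All of them but Ass1 (402, 544 and 480 in Control, HF and HF+SFC) were bright, which matched the liver label. Of the 13 hepatocyte markers 0 differed by 1.5-fold in HF. Their summed signal was 443568, 421693 and 426293 in Control, HF and HF+SFC, and their median of -0.09 for HF over Control became 0.03 under quantile and lowess scaling. Of 17 Kupffer cell and macrophage markers 6 were higher and 0 lower in HF, with a summed signal of 28506, 37239 and 27911. Of 14 stellate cell markers 8 were higher and 0 lower, with a summed signal of 20493, 29806 and 23139. Of 13 endothelial markers 2 were higher, with a summed signal of 13592, 15373 and 13353. Higher by 1.5-fold were thus 35.3%, 57.1% and 15.4% of the macrophage, stellate and endothelial markers, against 11.3% of kept genes. Of 7 cholangiocyte markers listed 4 were kept, with 1 (25%) higher and 1 (25%) lower. Of 11 lymphocyte and platelet markers listed 4 were kept, with 1 (25%) higher and 0 lower. Among kept genes 11.3% were higher and 5.84% lower. The other lymphocyte and platelet markers, Cd3e, Cd79a and Ms4a1 among them, lay below the level filter, so that these cells were hardly read. Signal ratios of 3′ over 5′ control probe sets were lowest in HF for Actb (1.84, 1.65 and 1.73 in Control, HF and HF+SFC) and Pcx (4.28, 3.23 and 3.89). For Gapdh the ratio was also lowest in HF but nearly level (0.708, 0.680 and 0.708). The part of these cells and of RNA quality in the differences of the 31 genes was not tested.

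For each RefSeq promoter, the 250 bases before its own start were then scanned, in 25 promoters of 24 of the 31 genes and in 32851 promoters of 27025 genes in all, and a gene was counted if any of its promoters held the motif. The C/EBP site TTGCNNAA was found in 6 of 24 (25%, against 10.8% of all genes), namely C9, F9, F11, Fga, Fgb and Klkb1. TTCNNNGAA was also found in 6 (all genes, 8.13%), C8a, F9, Fga, Fgb, Masp2 and Pros1. The ONECUT1 core ATTGAT was found in 4 (16.7%, all genes 7.72%), C8a, F2, F9 and F12, and the FOXA site TGTTTAC in 2 (8.33%, all genes 3.54%), F11 and Klkb1. The HNF4 site CAAAGTCCA was found in 0 of 24 and in 0.451% of all genes. No overlap between the motifs was removed. C6 and C8b held none of the motifs in their 250 bases. The matches of F11 to the FOXA and C/EBP motifs lie in the unprinted bases, between the outermost annotated start and the start of this promoter. F11 and Klkb1, both with FOXA and C/EBP matches, stood at 0.52 and -0.13 for HF over Control. For HF+SFC over Control they stood at 0.69 and 0.05. Whether the matches bear on these ratios was not tested. A match describes the letters only.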

How the data were processed

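Liver RNA of 3 groups was measured on 1 Affymetrix mouse genome array per group. Biotinylated cRNA was made with a 3′ IVT kit. The deposited values are intensity signals from MAS5 per the labels (version not given in the sources used here), and the authors scaled each array to one target before deposit. Names came from GEO's platform annotation, and only probe sets naming 1 gene were used. The brightest one by mean log2 signal stood for a gene, which was kept if this lay in the upper 50% of all probe sets other than controls (signal of 76.9 or more). Log2 ratios, medians and counts at or beyond 1.5-fold were computed with Python 3.11.15, numpy 2.4.6 and pandas 2.3.3. With 1 array per group no test was made, and the number of arrays limits the precision. To judge the alternative settings, the scatter among probe sets reading the same gene was used. This scatter was taken within the same pair of arrays. It therefore does not measure variation between animals, pools or repeat arrays, and is no error for a difference between groups. It holds transcript differences and cross-hybridisation, and dim probe sets are noisier.

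The 31 genes were all named, and of each wider list at most the 4 genes of largest difference in size, with others of known role added after their values were seen. The members and lists were chosen with earlier results of these data known. The steps were tested on simulated data. Promoter sequences came from RefSeq (GRCm38.p6), whose motifs were chosen for the listed transcription factors. Alternatives were quantile, median-centred and lowess scaling (fraction 0.3, statsmodels 0.14.6), no filter or the upper 25%, a pseudocount of 16, a floor, other choices of probe sets, a 2-fold threshold and Vtn counted with complement.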

Additional observations from a re-analysis of the deposited data

How the results depend on the processing

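Of 169 alternative values, 154 moved by less than the spread between probe sets of one gene (for a median, divided by the square root of its number of genes) or left the count within 1.5 times, 12 moved by more and 3 turned sign. Many of these alternatives could not move a value. The listed genes all lie at signals of 1797 or more, so that the filters and the floor left each value as it was. Median centring cannot change a difference of medians, and choices of probe sets cannot change a gene read by 1. The 154 is thus no measure of robustness. Dividing by the square root also treats genes as replicates, which they are not. The spread itself leaves out variation between pools. Under quantile scaling the medians of complement and coagulation were -0.14 and -0.0584 for HF over Control and -0.00970 (sign turned) and 0.00198 for HF+SFC over HF, and that of complement was -0.19 for HF+SFC over Control. Under lowess scaling these values were -0.15, -0.0891, -0.0178 (sign turned), 0.00261 and -0.21, and the coagulation median for HF+SFC over Control was -0.0496. These scalings act on how the ratio depends on signal, and the listed genes are bright. Leaving out probe sets with the suffix _s_at, _x_at or _a_at gave 1 gene beyond 1.5-fold for HF over Control. The only probe set of C8b ends in _a_at and was left out with them. Leaving out C6 and C8b, added after the data were seen, gave complement medians of -0.17 (HF over Control) and -0.20 (HF+SFC over Control), and turned the complement minus coagulation difference for HF over Control to 0.0347. C6, C8b and F11 kept direction and size in each alternative that read them, of which only the scalings and the pseudocount could change their ratios. No paired analysis was possible because the groups share only 1 replicate number, with 1 array each.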
